A study of Mus musculus with 6 samples.

Results

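The genes described here encode the machinery of oxidative phosphorylation, the mitochondrial pathway in which 4 electron transport complexes (I to IV) and ATP synthase (complex V) couple respiration to ATP production. They were chosen by symbol from the array's probe annotation: names starting with Nduf, Sdha to Sdhd, Uqcr, Cox4 to Cox8 or Atp5, together with Cycs and Cyc1, each from probe sets that name a single gene. The rule matched 103 probe sets of 75 genes, out of 8251 genes with a single symbol on the array, and the probe set with the highest mean signal stood for each gene. Complex I had 29 genes, complex II 4, complex III 8 (Cyc1 included), complex IV 15 and complex V 14. Cytochrome c (Cycs) stood apart, as did 2 complex I assembly factors (Ndufaf1, Ndufaf4) and 2 complex II assembly factors (Sdhaf1, Sdhaf2). A mean signal of at least 75.2 over the 6 arrays, the median of all probe sets, was required for testing, and 62 of the 75 genes passed. The 13 that did not were Ndufa1, Ndufa12, Ndufc2, Ndufs4, Ndufaf4, Cox5a, Cox6a2, Cox6b2, Cox7a1, Cox8a, Atp5j2, Atp5k and Atp5pb.

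Signals came from 6 oligonucleotide arrays of biotin-labelled total RNA from C2AS12, a mouse myoblast line that stems from C2 muscle cells. All cells had been infected with a recombinant adenovirus that encodes p300, a coactivator of transcription with histone acetyltransferase activity: wild-type p300 with doxycycline, mutant p300, or wild-type p300 alone. Each treatment was measured after 24 h in low-serum differentiation medium and at 0 h, just before that medium was added, so that every pairing of treatment with time had 1 array. The submitters give apoptotic death as the outcome with doxycycline and with mutant p300, and survival with wild-type p300 alone. The labels state neither what doxycycline did to the vector nor which mutation p300 carried, and no untreated or uninfected cells were among the samples. Although the series text calls the arrays biological replicates, repeat cultures are not named in the labels, and the spread behind each p-value is that between the arrays alone.

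In the respiratory chain, complex I takes electrons from NADH and complex II takes them from succinate, as part of the tricarboxylic acid cycle. Both pass them through ubiquinone to complex III, from which cytochrome c carries them to complex IV, where oxygen is reduced. Complexes I, III and IV pump protons, and complex V uses their return to make ATP. Muscle has tissue-specific forms of several complex IV subunits, and cytochrome c released from mitochondria is a trigger of apoptosis. The genes read here are nuclear, and the complexes also contain subunits encoded by mitochondrial DNA that the rule does not cover.

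The 6 arrays had been scaled to nearly the same level, with medians of 68.7 to 78.0. The ratio of 3′ to 5′ actin probe signals, a sign of RNA quality, was 1.45 with doxycycline and 1.49 with mutant p300, against 1.33 with wild-type p300 at 24 h, and 1.30 to 1.34 at 0 h. Relative to their mean, spike-in controls deviated by 0.132 and 0.233 (log2) on the doxycycline and mutant arrays and by -0.183 on the wild-type array at 24 h. Of 9 myoblast markers 8 were on the array and all 8 passed the signal filter, with summed signals of 2810.3 to 3852.0 at 24 h and 2285.0 to 2768.5 at 0 h. Myog, Des and Itga7, which mark commitment to or structure of muscle, rose over time, as did 7.67% of all genes tested. Myod1, Myf5, Cdh15, Vcam1 and Ncam1 of the same list were not called. Among markers of other cell types, 1 of 5 passed for adipocytes, 2 of 7 for macrophages and leukocytes, 0 of 6 for endothelium, 1 of 6 for epithelium and 2 of 6 for cardiac muscle. The leukocyte genes Ptprc, Adgre1, Itgam and Lyz2 stayed below 16.4 on every array, the 25th percentile of all signals and the floor used before taking log2. Cd14, Cd68 and Csf1r of the same list were above it on every array. Cd14 had 322.4 to 405.6 at 24 h and 371.4 to 416.6 at 0 h. Cd68 had 103.9 to 134.4 and 148.4 to 173.0, and Csf1r 39.3 to 52.5 and 35.2 to 76.9, for the same times. Between times, summed signals of the macrophage list were 497.1 to 592.4 at 24 h and 582.2 to 686.2 at 0 h, and those of the epithelial list 252.4 to 260.1 at 24 h and 203.8 to 297.8 at 0 h. Adipocyte markers summed to 262.0 to 350.3 at 24 h and 274.5 to 378.8 at 0 h. Endothelial markers summed to 85.0 to 252.9 at 24 h and 74.9 to 143.3 at 0 h, and cardiac markers to 191.9 to 337.7 at 24 h and 204.6 to 263.3 at 0 h. Their part in the results below was not tested.

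The first comparison asked how the genes changed over 24 h in differentiation medium, with the 3 treatments as blocks. Of the 62 genes tested, 10 fell, 0 rose and 52 were not called. The genes that fell were Ndufb8, Ndufb6, Ndufa5 and Ndufb10 of complex I, Uqcrq, Uqcrb and Uqcrc1 of complex III, Cox7b of complex IV, and Atp5o and Atp5e of complex V. A gene was called where limma's p, adjusted by the Benjamini-Hochberg method over all 6212 probe sets tested, was under 0.05. The 10 made up 16.1% of the 62, against 9.33% of all 4822 genes tested that fell (450) and 7.67% that rose (370). Because the samples are bulk RNA scaled to nearly the same level, a smaller share of expressing cells and less transcript per cell cannot be told apart.

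Mean changes below 0 were found for most of the genes. The mean log2 change over the 3 treatments was below 0 for 53 of the 62 (85.5%), against 48.8% of all genes tested, and it ranged from -0.68 to 0.28. For 22 genes (35.5%) all 3 arrays at 24 h lay below all 3 at 0 h, against 15.7% of all genes, and for 1 gene, Cox4i1, all lay above, against 13.1%. The change was negative in each of the 3 treatments for 33 of the 62, against 25.8% of all genes, and positive in each for 4, against 26.3%. An unadjusted limma p under 0.05 was reached by 19 of the 62, all with a mean below 0, where 32.4% of all genes reached it in either direction.

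Medians of the change differed between complexes, although each rests on few genes and was not tested. Complex III had a median of -0.29 over 8 genes (SD of the 3 treatments' medians 0.090), complex V -0.245 over 11 (0.015), complex II -0.14 over 4 (0.092), complex I -0.13 over 25 (0.057) and complex IV -0.05 over 10 (0.061). All 62 genes together had a median of -0.16 (0.039), against 0.01 for all genes tested. With doxycycline, mutant and wild-type p300 taken one at a time, the median over the 62 was -0.21, -0.13 and -0.15. Complex III had -0.37 with doxycycline, -0.22 with mutant p300 and -0.37 with wild-type p300, while complex IV had -0.105, -0.001 and -0.11 for the same treatments. Complex V had -0.203, -0.179 and -0.207, all nearer 0 than its median of the mean change, -0.245. Its SD of 0.015 is thus the spread of these 3 medians and not the error of -0.245. Leaving out 1 array at 24 h gave complex V -0.240 to -0.183. With dim genes included, the median of complex IV was 0.0 over 15 genes, and that of complex V was -0.26 over 14.

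**Figure D1:**
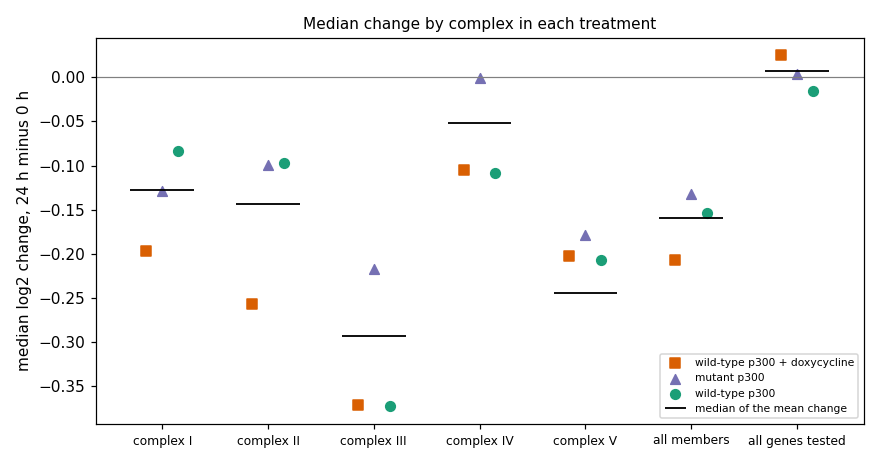
Median log2 change, 24 h minus 0 h, over the tested genes of each complex. Symbols mark the 3 treatments (1 array each per time) and the black line marks the median of the mean change. Complex III lies lowest at -0.29, complex IV lies near 0 at -0.05, and all genes tested lie at 0.01. The complex IV genes with a mean change above 0 were those with its lowest mean signals.

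The number of calls depended on the arrays and on the scaling. With either doxycycline array left out, 3 of the 10 genes passed (Ndufb8, Uqcrq and Cox7b), and with either mutant array left out, 4 did (Ndufb8, Uqcrq, Uqcrb and Atp5e). Leaving out a wild-type array gave 11 calls, 7 of them among the 10, where 666 (0 h) and 662 (24 h) probe sets were lower. With no filter on dim probe sets 0 genes were called on the whole array. Without treatment as a block 4 of the 10 were called, where 309 of 6212 probe sets were lower. Without a variance trend 4 genes were called, 3 of the 10 and Cycs, where 392 of 6212 probe sets were lower. Scaled to the spike-in controls, which shifts the median change of all probe sets to -0.116, 6 of the 10 passed, and the split over all genes was 373 lower and 109 higher. Ndufb8 and Uqcrq were called in 12 of 13 alternative settings and Cox7b in 10 of 13, and the direction of all 10 was the same in each of those settings.

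**Figure D2:**
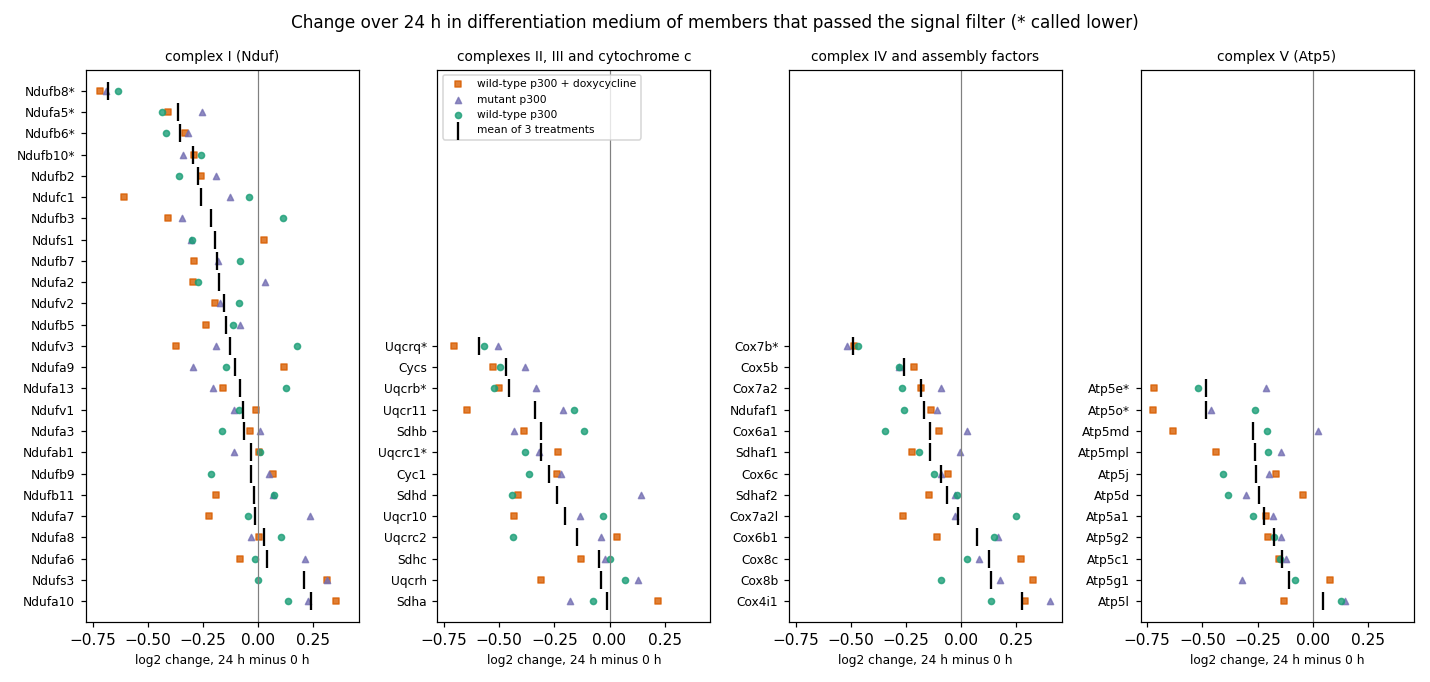
Log2 change, 24 h minus 0 h, of each of the 62 tested genes, with a symbol for each treatment and a black bar for their mean; an asterisk marks the 10 genes called lower. Most bars lie left of 0, from -0.68 (Ndufb8) to 0.28 (Cox4i1).

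In complex I, 4 of the 25 genes tested fell, and 3 of these belong to the Ndufb names, accessory subunits of the membrane arm. Ndufb8 had a signal of 573.5 at 24 h against 943.5 at 0 h with doxycycline, 614.8 against 990.1 with mutant p300 and 611.2 against 947.6 with wild-type p300. All 3 values at 24 h were far below all 3 at 0 h, and the treatments differed little at either time. Ndufb8 fell by 0.68 ± 0.043 on the log2 scale (SD over 3 treatments), to 0.625 of its 0 h signal, with a limma adjusted p of 0.00147. Ndufb6 had 1382.1 at 24 h against 1739.0 at 0 h with doxycycline, 1592.9 against 1987.7 with mutant p300 and 1359.2 against 1811.7 with wild-type p300, without overlap between times, and fell by 0.355 ± 0.052 (limma adjusted p = 0.0272). Ndufb10 gave 715.6 at 24 h against 875.6 at 0 h with doxycycline, 746.5 against 945.0 with mutant p300 and 743.9 against 889.6 with wild-type p300. Its times did not overlap either. It fell to 0.815 of its 0 h signal and lay just inside the threshold (log2 change -0.30 ± 0.041, limma adjusted p = 0.05 after rounding). Ndufa5, an accessory subunit of the matrix arm, had 691.1 at 24 h against 916.3 at 0 h with doxycycline, 777.4 against 926.6 with mutant p300 and 758.6 against 1023.9 with wild-type p300. It was lower at 24 h on every array and fell by 0.36 ± 0.097 (limma adjusted p = 0.0278). Its probe set is of a kind shared by several transcripts, as the _s_at suffix marks.

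All 9 Ndufb genes tested had a mean change below 0, with a median of -0.21, a range of -0.68 to -0.02 and 6 without overlap between times. Ndufb2 came close to the threshold, with a log2 change of -0.27 ± 0.086 and a limma adjusted p of 0.0717. The 10 Ndufa genes tested, Ndufab1 included, had a median of -0.05, 7 of them below 0, and 1 without overlap. Among all genes tested, 48.8% had a mean change below 0 and 15.7% were lower at 24 h without overlap. The 4 core subunits tested were not called and differed in sign. Ndufv1, which carries the flavin that accepts electrons from NADH, had a log2 change of -0.07 ± 0.053 (limma adjusted p = 0.668). Its partner Ndufv2 gave -0.15 ± 0.057, and the iron-sulfur subunit Ndufs1 gave -0.19 ± 0.19. Ndufs3, a core subunit of the matrix arm, was at 0.21 ± 0.18 (limma adjusted p = 0.185). Among the tested genes of complex I the highest mean change belonged to Ndufa10, with 182.4 at 24 h against 142.8 at 0 h with doxycycline, 140.0 against 119.5 with mutant p300 and 164.3 against 149.6 with wild-type p300. Those arrays overlapped between times, and the change of 0.24 ± 0.11 was not called (limma adjusted p = 0.289).

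**Figure D3:**
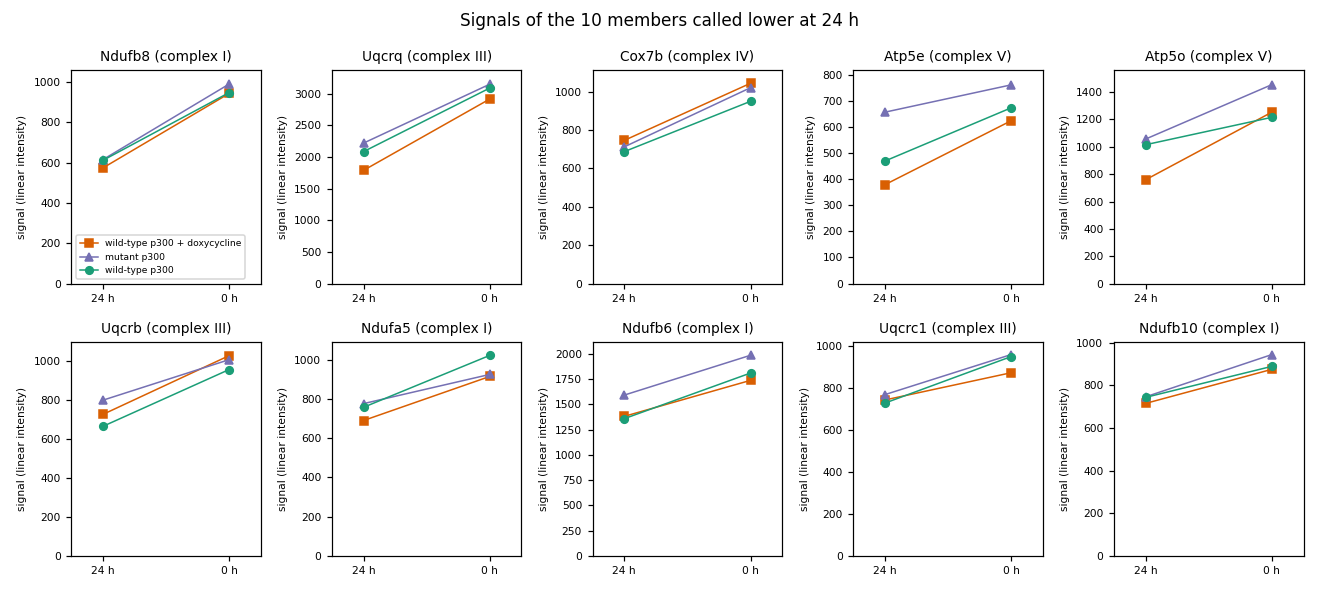
Array signals (linear intensity) at 24 h and 0 h of the 10 genes called lower, with 1 line for each treatment. In 9 of the panels every point at 24 h lies below every point at 0 h; for Atp5e the mutant array at 24 h (657.1) lies above the doxycycline array at 0 h (624.4).

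None of the 4 complex II genes was called, against the 9.33% of all genes that fell. Sdhb, the iron-sulfur subunit, had 856.6 at 24 h against 1120.0 at 0 h with doxycycline, 938.1 against 1268.3 with mutant p300 and 1118.6 against 1214.2 with wild-type p300, and was lower at 24 h on every array. Its log2 change was -0.31 ± 0.17, just outside the threshold (limma adjusted p = 0.0613). Sdha, the flavoprotein that oxidises succinate, had 267.9 at 24 h against 230.3 at 0 h with doxycycline, 238.0 against 269.2 with mutant p300 and 233.7 against 246.3 with wild-type p300. Its values at both times overlapped, with a mean change of -0.01 ± 0.21. The membrane anchors differed from each other. Sdhc had 1244.1 at 24 h against 1359.5 at 0 h with doxycycline, 1192.7 against 1208.9 with mutant p300 and 1452.4 against 1450.7 with wild-type p300, with a mean change of -0.05 ± 0.07. Sdhd had 674.0 at 24 h against 897.6 at 0 h with doxycycline, 1089.1 against 986.7 with mutant p300 and 764.2 against 1039.9 with wild-type p300. Here the mutant array was higher at 24 h and both others were lower, and the mean change of -0.24 ± 0.33 was not called (limma adjusted p = 0.239). The assembly factors Sdhaf1 and Sdhaf2, which the name rule took in, had log2 changes of -0.14 ± 0.12 and -0.06 ± 0.071, and Ndufaf1 of complex I had -0.17 ± 0.081. None of these was called.

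All 8 complex III genes had a mean change below 0, and 3 fell. Uqcrq, a small subunit near the ubiquinone site, had 1788.0 at 24 h against 2915.4 at 0 h with doxycycline, 2218.3 against 3149.5 with mutant p300 and 2083.8 against 3088.7 with wild-type p300. Every array at 24 h lay below every array at 0 h, and Uqcrq fell by 0.59 ± 0.10 on the log2 scale, to 0.663 of its 0 h signal (limma adjusted p = 0.00387). Uqcrb, another small subunit of the complex, had 727.5 at 24 h against 1030.1 at 0 h with doxycycline, 800.7 against 1009.4 with mutant p300 and 666.0 against 958.5 with wild-type p300. It fell by 0.45 ± 0.10 (limma adjusted p = 0.0111) with no overlap between times, on a probe set whose _f_at suffix marks similarity to other transcripts. Uqcrc1, one of the 2 core proteins, had 741.4 at 24 h against 871.1 at 0 h with doxycycline, 766.9 against 957.6 with mutant p300 and 726.6 against 948.0 with wild-type p300. It fell by 0.31 ± 0.076 (limma adjusted p = 0.0452), again without overlap.

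Cyc1, the cytochrome c1 subunit that hands electrons to cytochrome c, had 3084.0 at 24 h against 3638.3 at 0 h with doxycycline, 3133.7 against 3654.4 with mutant p300 and 2851.5 against 3667.5 with wild-type p300. The times did not overlap, and the log2 change of -0.27 ± 0.077 missed the threshold (limma adjusted p = 0.0863). A second probe set of Cyc1 had a change of 0.11 with a limma adjusted p of 0.462, so the 2 probe sets disagreed in sign. The hinge protein Uqcrh had the smallest mean change of the complex, with 1438.6 at 24 h against 1784.9 at 0 h with doxycycline, 2219.3 against 2032.8 with mutant p300 and 1748.4 against 1666.1 with wild-type p300. Its mutant and wild-type arrays were higher at 24 h and its doxycycline array was lower, giving -0.04 ± 0.24. Uqcr11 gave -0.34 ± 0.27 with a limma adjusted p of 0.0786. Cycs, the mobile electron carrier and apoptosis trigger, had 89.1 at 24 h against 128.4 at 0 h with doxycycline, 134.0 against 174.8 with mutant p300 and 115.1 against 162.3 with wild-type p300. Each treatment was lower at 24 h, but levels differed between treatments so that the times overlapped, and the change of -0.47 ± 0.076 was not called (limma adjusted p = 0.0649).

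By its median, complex IV stood closest to the array as a whole: 1 of its 10 tested genes fell, and 6 had a mean change below 0. Those above 0 were Cox6b1, Cox8b, Cox8c and Cox4i1, the tested genes of the complex with the lowest mean signals. Their mean signals were at most 394.1 (Cox8c), against at least 860.3 (Cox7b) for the 6 below 0. Cox6b1 and Cox8b were read on _r_at probe sets. Cox4i1 was read on an _f_at set, as were Cox6a1 and Cox6c below 0. The part of low signal in the median of complex IV was not tested. Cox7b had 746.3 at 24 h against 1044.2 at 0 h with doxycycline, 712.5 against 1021.1 with mutant p300 and 687.7 against 950.1 with wild-type p300. The times were far apart and the 3 changes nearly equal, and Cox7b fell by 0.49 ± 0.027 on the log2 scale, to 0.712 of its 0 h signal (limma adjusted p = 0.00623). Cox5b had a change of -0.26 ± 0.038 without overlap and lay outside the threshold (limma adjusted p = 0.0734). Cox4i1, a subunit involved in regulation of the enzyme by ATP, had 182.8 at 24 h against 149.6 at 0 h with doxycycline, 185.5 against 140.5 with mutant p300 and 184.0 against 167.3 with wild-type p300. It was the gene in which all arrays at 24 h were higher, but the change of 0.28 ± 0.13 was not called (limma adjusted p = 0.2). That probe set carries the suffix _f_at, and the times overlapped on the other tested probe set of Cox4i1, a plain _at set. It had 101.0 at 24 h against 72.1 at 0 h with doxycycline, 65.9 against 70.3 with mutant p300 and 76.2 against 77.1 with wild-type p300. Cox7a2l, which takes part in joining complexes III and IV into supercomplexes, had 698.0 at 24 h against 837.0 at 0 h with doxycycline, 930.8 against 948.9 with mutant p300 and 1060.1 against 893.5 with wild-type p300, with overlap and a mean change of -0.01 ± 0.26. Cox4i2 was not matched to a probe set with a single symbol.

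The muscle isoforms of complex IV are expressed in heart and skeletal muscle in place of the general ones. Cox6a2, the muscle form of subunit 6a, had 17.6 at 24 h against 73.0 at 0 h with doxycycline, 17.0 against 56.5 with mutant p300 and 15.6 against 46.8 with wild-type p300. All 3 values at 24 h were near or below the floor of 16.4, and all 3 at 0 h were above it. Its mean signal was under the filter, and without the filter its log2 change of -1.77 ± 0.27, limited by the floor, had a limma adjusted p of 0.0955 and was not called. Its general partner Cox6a1 had 2544.8 at 24 h against 2730.4 at 0 h with doxycycline, 2625.7 against 2579.6 with mutant p300 and 2093.6 against 2654.8 with wild-type p300, with overlap and a change of -0.14 ± 0.19 (limma adjusted p = 0.407). Cox7a1, the muscle form of subunit 7a, was below the floor on all 6 arrays, at 5.2 to 15.6 at 24 h and 4.5 to 12.2 at 0 h. Its general partner Cox7a2 had 1716.6 at 24 h against 1949.1 at 0 h with doxycycline, 1904.5 against 2030.6 with mutant p300 and 1687.1 against 2029.5 with wild-type p300. Cox7a2 was lower at 24 h on every array, by -0.18 ± 0.087, and was not called (limma adjusted p = 0.208). Cox8b, the muscle form of subunit 8, had 117.0 at 24 h against 93.3 at 0 h with doxycycline, 101.7 against 89.9 with mutant p300 and 101.7 against 108.5 with wild-type p300, with overlap. That probe set carries the suffix _r_at. The other probe set of Cox8b, a plain _at set, was dim, at 10.7 to 23.5 at 24 h and 13.9 to 18.3 at 0 h. The general form Cox8a was dim on every array, at 3.5 to 24.0 at 24 h and 9.5 to 15.3 at 0 h, so its probe set gave no usable change.

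**Figure D4:**
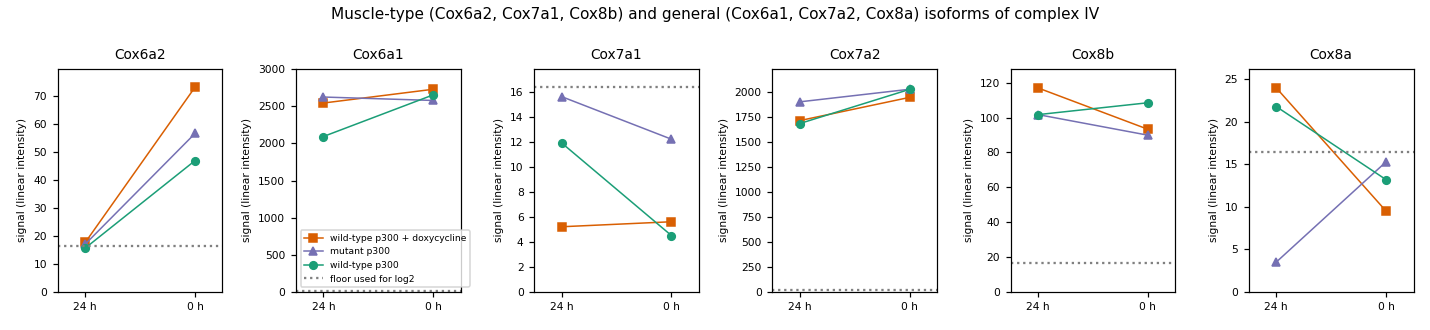
Array signals (linear intensity, separate axes) of muscle and general isoforms of 3 complex IV subunits at 24 h and 0 h, with 1 line for each treatment and a dotted line at the floor of 16.4. Cox6a2 lies at 15.6 to 17.6 at 24 h and at 46.8 to 73.0 at 0 h, while Cox7a1 lies under the floor at both times.

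In complex V, 2 of the 11 tested genes fell and 10 had a mean change below 0. Atp5o, the subunit of the stalk that confers sensitivity to oligomycin, had 759.2 at 24 h against 1253.8 at 0 h with doxycycline, 1056.9 against 1455.1 with mutant p300 and 1015.4 against 1216.1 with wild-type p300. It was lower at 24 h on every array, most on the doxycycline array, and fell by 0.48 ± 0.23 on the log2 scale (limma adjusted p = 0.0185). Atp5e, the epsilon subunit of the central stalk, had 379.1 at 24 h against 624.4 at 0 h with doxycycline, 657.1 against 761.9 with mutant p300 and 469.8 against 673.9 with wild-type p300. Each treatment was lower at 24 h, yet the times overlapped, and Atp5e fell by 0.485 ± 0.26 (limma adjusted p = 0.0239). Its probe set carries the suffix _i_at, which marks an incomplete set of unique probes. Leaving out either doxycycline array gave limma adjusted p-values of 0.131 for Atp5e, and of 0.116 and 0.12 for Atp5o.

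Other genes of the F1 part of ATP synthase, to which epsilon also belongs, were not called. The alpha subunit gene Atp5a1 had a log2 change of -0.22 ± 0.046 without overlap (limma adjusted p = 0.132), and the gamma subunit gene Atp5c1 had -0.14 ± 0.018, also without overlap (limma adjusted p = 0.317). The delta subunit gene Atp5d had -0.245 ± 0.18 with overlap (limma adjusted p = 0.17). The c-ring genes Atp5g1 and Atp5g2 had changes of -0.11 ± 0.20 and -0.17 ± 0.029, neither of them called. Atp5g1 had 79.6 at 24 h against 75.4 at 0 h with doxycycline, 60.3 against 75.4 with mutant p300 and 84.0 against 88.8 with wild-type p300. Atp5l, a subunit of the membrane part, had 2442.2 at 24 h against 2669.8 at 0 h with doxycycline, 2917.5 against 2635.4 with mutant p300 and 2874.1 against 2628.3 with wild-type p300. It was the one tested complex V gene with a mean change above 0, 0.05 ± 0.15, and its times overlapped. Among the 13 dim genes, changes ran from -1.77 (Cox6a2) to 0.45 (Cox5a) on the floored log2 scale, and without the filter the limma adjusted p of each was at least 0.0955.

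Promoter windows of RefSeq genes, from 250 bases before to 50 bases after the start site on GRCm38.p6, were found for 61 of the 75 genes. Binding motifs of 4 factors known to regulate nuclear respiratory genes were searched as exact letters on both strands. The NRF1 motif, whose letters stand in capitals in the first 3 windows shown, was in a window of 12 of the 61 genes (19.7%), against 5.19% of 27025 genes with a window. The other motifs were rarer: the ETS letters CCGGAAGT of GABPA in 4 genes (6.56% against 4.31%), the YY1 letters GATGGCGG in 4 (6.56% against 1.97%) and the ESRRA letters TCAAGGTCA in 1 (1.64% against 0.466%). The 27025 genes were all those with a window, whether or not they were on the array or tested. Base content of the windows was not matched. Of the 10 genes that fell 8 had a window, and 3 of these held the NRF1 motif, namely Atp5o, Ndufa5 and Uqcrc1. Their windows are shown with the match in capitals, together with that of Ndufb8, the gene with the largest fall, which held none of the 4 motifs. No motif is contained in another, a match is not a measured binding site, and no match says only that these letters are not in the window.
Atp5o, chr16:91931581-91931880, minus strand: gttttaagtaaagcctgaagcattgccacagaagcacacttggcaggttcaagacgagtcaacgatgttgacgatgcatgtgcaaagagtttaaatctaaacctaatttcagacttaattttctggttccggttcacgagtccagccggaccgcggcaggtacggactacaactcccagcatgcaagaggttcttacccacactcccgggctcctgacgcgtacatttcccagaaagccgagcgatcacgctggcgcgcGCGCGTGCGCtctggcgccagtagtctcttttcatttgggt
Ndufa5, chr6:24527641-24527940, minus strand: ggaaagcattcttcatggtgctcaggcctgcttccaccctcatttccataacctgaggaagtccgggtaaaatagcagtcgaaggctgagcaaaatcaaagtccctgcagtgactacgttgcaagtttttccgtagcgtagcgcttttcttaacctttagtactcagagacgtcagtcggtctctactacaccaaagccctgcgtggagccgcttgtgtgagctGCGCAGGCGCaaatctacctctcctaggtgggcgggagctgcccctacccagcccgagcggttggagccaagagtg
Uqcrc1, chr9:108936398-108936697, plus strand: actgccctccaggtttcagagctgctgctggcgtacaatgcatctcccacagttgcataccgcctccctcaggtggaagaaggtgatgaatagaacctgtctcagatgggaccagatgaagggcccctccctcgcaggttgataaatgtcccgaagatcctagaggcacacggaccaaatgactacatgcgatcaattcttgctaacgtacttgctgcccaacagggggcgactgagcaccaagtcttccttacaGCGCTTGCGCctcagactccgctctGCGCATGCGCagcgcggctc
Ndufb8, chr19:44555393-44555692, minus strand: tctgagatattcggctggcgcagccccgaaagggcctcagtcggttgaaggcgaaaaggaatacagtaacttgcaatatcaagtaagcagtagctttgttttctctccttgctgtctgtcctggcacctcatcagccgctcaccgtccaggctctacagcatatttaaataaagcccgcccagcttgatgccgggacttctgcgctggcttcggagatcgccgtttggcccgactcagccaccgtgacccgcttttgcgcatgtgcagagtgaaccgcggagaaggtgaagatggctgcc
The match in Atp5o starts 9 bases after the start site, that in Ndufa5 starts 26 bases before the start site of the window shown, and the first of 2 in Uqcrc1 starts 5 bases after it.

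The second comparison set cells that die (doxycycline or mutant p300) against cells that survive (wild-type p300) at 24 h. The 62 genes gave 0 calls in either direction, against 0.788% of all genes tested that were lower and 0.0415% that were higher in dying cells by limma. An unadjusted limma p under 0.05 was reached by 2 of the 62, Ndufs3 and Uqcrc2, against 11.8% of all genes. Both dying arrays lay below the wild-type array for 12 of the 62 and above it for 22, while among all genes tested the shares were 27.7% and 40.8%. Since wild-type p300 has a single array at this time, its spread was taken to be that of the dying arrays. The 3 counts of 0 among these genes, here and in the comparisons that follow, held with any doxycycline or mutant array left out.

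The genes with the largest differences are given for each complex with no call. Ndufs3 had 1426.8 with doxycycline and 1376.4 with mutant p300, against 1034.2 with wild-type p300. Both dying arrays were higher, by a mean of 0.44 on the log2 scale (limma adjusted p = 0.313). Ndufc1 had 770.7 with doxycycline and 1037.7 with mutant p300, against 1056.5 with wild-type p300, a mean difference of -0.24. In complex II, Sdhb had a mean difference of -0.32 with both dying arrays lower (limma adjusted p = 0.526), and Sdhd had 0.165 with the dying arrays on opposite sides of wild type. Uqcrc2, the other core protein of complex III, had 574.1 with doxycycline and 531.0 with mutant p300, against 409.5 with wild-type p300. It was higher on both dying arrays by 0.43 (limma adjusted p = 0.371), and Uqcr10 had 1235.6 with doxycycline and 1780.2 with mutant p300, against 1780.7 with wild-type p300, a mean of -0.26. In complex IV the extremes were Cox6a1 at 0.30 and Cox7a2l at -0.395, and neither passed (limma adjusted p = 0.509 and 0.523). In complex V, Atp5d, the delta subunit of the central stalk, had 325.0 with doxycycline and 388.0 with mutant p300, against 240.7 with wild-type p300, the largest difference of the 62 at 0.56 (limma adjusted p = 0.438). That probe set carries the suffix _f_at, and the other 3 tested probe sets of Atp5d did not show a difference of this size. A pair of them, also _f_at, had 234.6 with doxycycline and 267.4 with mutant p300, against 227.3 with wild-type p300, and 205.8 and 200.4 against 191.2 for the same treatments. The third, a plain _at set, was lower on both dying arrays, at 84.4 with doxycycline and 75.3 with mutant p300, against 96.4 with wild-type p300. Atp5g1 had 79.6 with doxycycline and 60.3 with mutant p300, against 84.0 with wild-type p300, a mean of -0.28.

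Median differences from wild type at 24 h were small in each complex. For complex I it was -0.06 with doxycycline and 0.09 with mutant p300, for complex II -0.20 and -0.11, for complex III -0.06 and 0.20, for complex IV 0.06 and 0.01, and for complex V -0.08 and 0.15. All genes tested had 0.06 with doxycycline and 0.05 with mutant p300. Over both dying arrays the medians were -0.02, -0.07, 0.09, 0.04 and 0.075 for complexes I to V. Scaling to the spike-in controls shifted the median of all probe sets to -0.321, against 0.045 as deposited, and all 5 medians were then negative, at -0.385, -0.437, -0.276, -0.329 and -0.290 for complexes I to V. On plain _at probe sets the sign turned for complex II (0.112) and complex V (-0.070). With the doxycycline array at 24 h left out the medians of complexes I, III and V were 0.094, 0.201 and 0.150, and with the mutant array left out they were -0.060, -0.064 and -0.078. With spike-in scaling 3 of the 62 genes, Cox7a2l, Sdhc and Sdhb, were called lower in dying cells, against 422 of all 6212 probe sets tested.

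**Figure D5:**
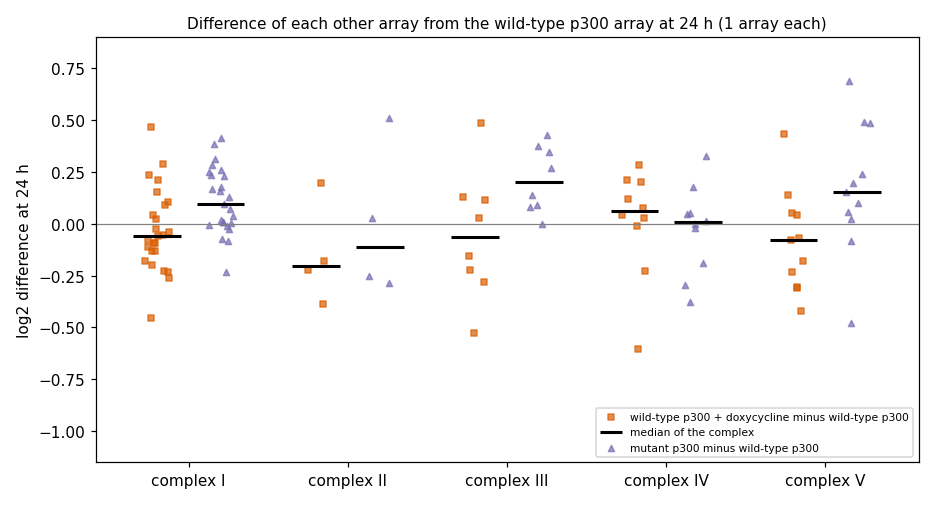
Log2 difference from the wild-type p300 array at 24 h of the tested genes of each complex, for the doxycycline array (squares) and the mutant array (triangles), with black lines at the medians. Points lie on both sides of 0 in every complex, and the doxycycline medians of complexes I, III and V lie below the mutant ones, at -0.06, -0.06 and -0.08 against 0.09, 0.20 and 0.15.

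Before the medium change, at 0 h, 0 of the 62 genes and 0.0% of all genes were called between dying and surviving treatments by limma. Unadjusted p under 0.05 was found for 0 of the 62 against 4.48% of all genes. Both dying arrays were lower than wild type for 12 and higher for 20 of the 62, against 31.7% and 37.6% of all genes. The difference of differences, which asks whether the change over time differed between outcomes, gave 0 calls among the 62 and 0.0% of all genes (unadjusted limma p under 0.05 for 0 of the 62 and 3.24% of all genes). Its values ran from -0.49 (Ndufb3) to 0.43 (Uqcrc2). Ndufb3, not called, had changes over time of -0.41 with doxycycline, -0.34 with mutant p300 and 0.11 with wild-type p300. For Uqcrc2 these changes were 0.03, -0.04 and -0.44.

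The doxycycline and mutant arrays share the same outcome, and they differed from each other across these genes. At 24 h, 47 of the 62 (75.8%) were lower with doxycycline than with mutant p300, against 49.7% of all genes tested, with a median log2 difference of -0.145 against 0.003. With 1 array for each, this is a description with no test. At 0 h the count was 43 (69.4%) against 49.8%, with a median of -0.07. At 24 h the lower genes were 21 of 25 in complex I, 2 of 4 in complex II, 7 of 8 in complex III, 5 of 10 in complex IV and 9 of 11 in complex V. All 9 tested Ndufb genes were lower at both times, as were all 3 Ndufv genes. Of the 10 Ndufa genes 8 were lower at each time, and of the 2 Ndufs genes 0 were at 24 h and 1 was at 0 h. Complex I had 21 of 25 lower at 0 h as well.

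The largest differences at 24 h were spread over several complexes. Atp5e had 379.1 with doxycycline and 657.1 with mutant p300, lower by a log2 difference of -0.79. Sdhd had 674.0 and 1089.1 for these treatments (-0.69), and Atp5md, a subunit of the membrane part of ATP synthase, had 1525.0 and 2425.5 (-0.67). Uqcrh had 1438.6 and 2219.3 (-0.625), and Cycs had 89.1 and 134.0 (-0.59). In the other direction Cox8c had 481.1 with doxycycline and 339.1 with mutant p300 (0.505), Atp5g1 79.6 and 60.3 (0.40), and Ndufa10 182.4 and 140.0 (0.38). Under quantile normalization 40 of the 62 were lower with doxycycline at 24 h (64.5% against 51.0% of all genes), and with spike-in scaling 36 were (58.1% against 37.7%). On these 2 arrays the actin ratio was 1.45 with doxycycline and 1.49 with mutant p300, and the same ratio for Gapdh was 0.859 and 0.905. Their median signals, 78.0 with doxycycline and 68.7 with mutant p300, were the highest and the lowest of the series. The part of these array differences in the counts was not tested.

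Other mitochondrial genes were read over time from lists chosen with earlier results known, and their counts stand beside the 9.33% of all genes tested that fell and the 7.67% that rose. Of 15 tested genes of the tricarboxylic acid cycle and pyruvate dehydrogenase, 2 fell (13.3%) and 0 rose, with a median log2 change of -0.18. They were Cs, citrate synthase, at -0.31 (limma adjusted p = 0.0479), and Suclg2, a subunit of succinyl-CoA ligase, at -0.44 (limma adjusted p = 0.018). Of 15 genes of fatty acid oxidation 1 fell (6.67%), the enoyl-CoA hydratase Echs1, at -0.66 (limma adjusted p = 0.0138), and the median was -0.17. Among 14 assembly factors and mitochondrial chaperones, Ndufaf1 included, 6 fell (42.9%) and the median was -0.27. The chaperonin pair was among them: Hspd1 fell by 0.66 ± 0.24 and Hspe1 by 0.52 ± 0.088 on the log2 scale (limma adjusted p = 0.00559 and 0.00538). The import chaperone Hspa9, the proteases Lonp1 and Afg3l1, and the prohibitin Phb2 also fell.

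Of 18 carriers, channels and import genes, 5 fell (27.8%), namely Slc25a10, Vdac3, Timm8a1, Timm22 and Timm23, and the median was -0.18, where 9.33% of all genes fell and 7.67% rose. The peroxiredoxin Prdx3 fell, as 1 of 5 antioxidant genes, while 0 of 10 mitochondrial cell death genes were called, with a median of 0.10 that was -0.025 under spike-in scaling. Among 7 tested regulators of mitochondrial biogenesis 0 fell and 1 rose, and their median was 0.20. Yy1, a zinc finger factor that can act on respiratory genes, had 290.9 at 24 h against 192.6 at 0 h with doxycycline, 339.6 against 217.5 with mutant p300 and 286.8 against 175.8 with wild-type p300. It rose without overlap by 0.65 ± 0.056 (limma adjusted p = 0.00572), and was not called under spike-in scaling. Under that scaling 0 genes of the tricarboxylic acid cycle list and 0 antioxidant genes were called lower, against 1 of fatty acid oxidation, 5 assembly factors and chaperones, and 3 carriers, channels and import genes, where 373 of all 4822 genes were called lower and 109 higher. Ppargc1a, a coactivator that drives mitochondrial biogenesis, was below the filter, with 32.7 against 31.7 with doxycycline, 13.4 against 18.5 with mutant p300 and 55.5 against 23.9 with wild-type p300.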

How the data were processed

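Total RNA from C2AS12 cells was hybridised to 6 Affymetrix arrays, 1 for each of 3 treatments at 24 h and 0 h. The authors deposited 12488 probe set signals per array as linear intensity; MAS5 is named in the submitters' processing notes, with no version or scaling target. Signals were used as deposited, without the 66 control probe sets. No detection calls were in the table used, so presence or absence of dim probe sets could not be judged. Precision is limited by the number of arrays. Gene symbols came from the platform's probe annotation, and 10 probe sets naming several genes, a matching symbol among them, stayed out. The number of array columns that could not be tied to a sample was 0.

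Before log2, values were raised to a floor of 16.4, the 25th percentile. The 6212 probe sets with a mean signal of at least 75.2 were tested in R 4.3.3 with limma 3.58.1 (linear models, moderated variance with a trend, two-sided p adjusted by Benjamini-Hochberg over all of them). Change over time had treatment as a block (2 residual degrees of freedom). Outcome contrasts came from 1 mean for each outcome and time, with 2 residual degrees of freedom from the doxycycline and mutant arrays. Both fits were run on simulated data with independent noise set by signal alone and no treatment effects. That run does not measure how well the calls hold in these arrays. Medians over genes and the comparison of the doxycycline with the mutant array had no test. The members, gene lists and named-gene rule were chosen with earlier results of these data known. Named with all values were genes called, the extremes of each complex, both cytochromes c, and fixed isoforms of complexes II and IV. Alternatives varied the filter, floor, scaling, trend, block, probe sets and arrays. Promoter windows came from RefSeq (GRCm38.p6).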

Additional observations from a re-analysis of the deposited data

How the results depend on the processing

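The counts of calls, the medians of the complexes and the genes called were recomputed with 1 choice changed at a time; the other mitochondrial lists and the comparison of the doxycycline with the mutant array were recomputed under the scalings and the pseudocount only, and the promoter counts were not. The calls over time on the whole array (1009 probe sets, 450 higher and 559 lower) numbered 0 with no filter on dim probe sets, 617 (141 higher, 476 lower) scaled to the spike-in controls, 514 without treatment as a block, and 479 to 1283 with 1 array left out. Among the oxidative phosphorylation genes the 10 calls became 0 with no filter, 6 with spike-in scaling, 4 without a variance trend, 4 without the block, and 3 to 11 with 1 array left out; they were 14 under quantile normalization and 7 on plain _at probe sets. At 24 h the 48 calls between outcomes became 192 with no filter, 428 with spike-in scaling, 11 without a variance trend and 161 to 351 with 1 array left out, while the 0 calls among the oxidative phosphorylation genes became 3 with spike-in scaling. At 0 h the whole array gave 126 calls with no filter, 5 with spike-in scaling and 18 to 38 with 1 array left out, against 0. The interaction gave 245, 1 and 6 to 43 under the same settings, against 0. With an array left out, 1 residual degree of freedom is left and a lone array is assumed to vary like the others. Spike-in scaling moved the median change over time of complexes I to V to -0.249, -0.265, -0.415, -0.174 and -0.366, and the median difference at 24 h to -0.385, -0.437, -0.276, -0.329 and -0.290. Over all probe sets tested these medians moved from 0.005 to -0.116 over time and from 0.045 to -0.321 at 24 h. On plain _at probe sets the median over time was -0.049 for complex II and -0.229 for complex V, and the medians at 24 h changed sign for complex II (0.112) and complex V (-0.070). With all probe sets of a gene averaged, complex V had -0.220 over time. Leaving out 1 array gave -0.240 to -0.183 for complex V over time, and at 24 h -0.060 to 0.094 for complex I, -0.202 to -0.114 for complex II, -0.064 to 0.201 for complex III, 0.006 to 0.059 for complex IV and -0.078 to 0.150 for complex V. The cause of these differences was not tested. Member names by current symbol changed no gene. Labels carry no replicate numbers. No paired analysis was possible because each treatment and time has 1 array, beyond the treatment block used over time. Counts of members under each scaling in the comparison of the doxycycline with the mutant array were chosen after seeing the data.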
